A study of Mus musculus with 9 samples.

Results

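The genes described here are 9 genes of thalamic neurons, Prkcd, Ntng1, Tcf7l2, Lef1, Ramp3, Amotl1, Plekhg1, Shox2 and Synpo2, out of 20731 gene symbols in the count table. They were selected on measured values of these same 9 libraries, so their differences between the groups are a description and carry no test. All 9 were found in the table and all 9 passed the filter on low counts, Shox2 only through the groups in which it was above 0. The thalamus relays sensory and motor signals to the cerebral cortex through excitatory projection neurons, most of which express the vesicular glutamate transporter gene Slc17a6. Tcf7l2 marks these neurons from development into adult life, Lef1 is also expressed in thalamic neurons, and Prkcd, Ntng1, Ramp3 and Amotl1 mark subsets of their nuclei. In the adult cortex most of these genes are expressed at low levels or in few cells.

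The study asked how blocking lymph drainage from the brain changes the outcome of cerebral venous sinus thrombosis (CVST), and whether an inhibitor of endoplasmic reticulum stress alters it. Each of 3 groups held 3 libraries, each from 1 male adult C57BL/6J mouse, taken on day 2. Total counts per library ranged from 18100739 to 25091498. No animals without thrombosis were used here. Mice of the group CVST had a clot induced in the superior sagittal sinus with ferric chloride. Mice of CVST_Ligation had the same clot and had the deep cervical lymph nodes ligated on both sides. Mice of CVST_Ligation_4_PBA had clot and ligation and received 4-phenylbutyric acid (4-PBA) by intraperitoneal injection, which the methods place before modelling and the design text after ligation. The labels name the tissue as brain, whereas the design text names cortex. Ligation of the nodes stands for a loss of drainage, and how far drainage was lost is not measured in these data.

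The libraries differed in markers of brain divisions, and single libraries stood apart. Levels are given as CPM, counts scaled to a library size that was corrected for composition with TMM. The excitatory cortical transmitter gene Slc17a7 was present in every library, at 1761, 1419.8 and 1974 CPM in replicates 1 to 3 of CVST, 1433, 419 and 1406 CPM in CVST_Ligation and 519.8, 567 and 732 CPM in CVST_Ligation_4_PBA. Fat2, a cadherin of cerebellar granule cells, reached 393 CPM in CVST_Ligation replicate 2 and 9.85 CPM in CVST_Ligation replicate 3, against at most 0.533 CPM in the other 7 libraries. Slc6a4, the serotonin transporter, was at 102 CPM in CVST_Ligation replicate 2 and at or below 0.421 CPM elsewhere. CVST_Ligation replicate 2 thus stood apart in cerebellar and serotonergic marker genes, and results on the 9 thalamic genes are also given without it. CVST_Ligation_4_PBA replicate 3 was the highest of the 9 libraries for 8 of the 9 genes, though replicate 1 of its group lay near it in their mean. Results are given without replicate 3 of CVST_Ligation_4_PBA as well. CVST_Ligation_4_PBA replicate 1 was the highest library for 6 of 6 choroid plexus markers. Cortical markers were thus present under either name of the tissue, alongside markers of other divisions.

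The 9 thalamic genes were low in CVST, higher in most cases in CVST_Ligation, and highest in CVST_Ligation_4_PBA. As a single measure, the mean over the 9 genes of log2 CPM, each gene centred on its own mean over the libraries, was -1.24, -1.32 and -1.55 in replicates 1 to 3 of CVST. It was -0.17, 0.55 and 0.33 in CVST_Ligation and 1.34, 0.47 and 1.57 in CVST_Ligation_4_PBA. All 3 CVST libraries lay below the other 6, and CVST_Ligation_4_PBA replicate 2 lay inside the range of CVST_Ligation while replicates 1 and 3 lay above it. The exception to the lead of CVST_Ligation_4_PBA replicate 3 was Ntng1, highest in replicate 1, and replicate 2 was the lowest of its group for 9 of 9 genes. In RNA from whole tissue, more thalamic neurons in the sample and more RNA of these genes per neuron cannot be told apart.

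In CVST_Ligation against CVST, 8 of the 9 genes were higher and Ramp3 was lower, with a median log2 fold change of 0.79 beside a median of 0.00 over all 14746 genes tested. The groups did not overlap for 6 of the 9, all higher in CVST_Ligation, where 6.61% of all tested genes had every CVST_Ligation library above every CVST library. In CVST_Ligation_4_PBA against CVST_Ligation, 9 of 9 were higher, with a median of 0.58 beside -0.02 over all tested genes, and 3 of the 9, Prkcd, Ramp3 and Synpo2, had groups that did not overlap, beside 3.51% of all tested genes. In CVST_Ligation_4_PBA against CVST, 9 of 9 were higher with no overlap, beside 12.3% of all tested genes, and the median was 1.69 beside -0.01. With Shox2 set at its lower bound it remained the highest of the 9 against CVST, so the medians could not change. Since the genes were selected on these values, the counts and medians carry no test. The comparisons share libraries, CVST in the first and the last, CVST_Ligation in the first and the middle, and CVST_Ligation_4_PBA in the other pair.

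Single libraries moved some of these values. Without CVST_Ligation replicate 2, the median of the 9 genes was 0.57 in CVST_Ligation against CVST and 0.90 in CVST_Ligation_4_PBA against CVST_Ligation, where 6 of the 9 genes then had groups that did not overlap, beside 15.8% of all tested genes. Without CVST_Ligation_4_PBA replicate 2, that number was 7 of 9, beside 5.69% of all tested genes, and the median 0.76. Without CVST_Ligation_4_PBA replicate 3, the number was 3 of 9, beside 8.33%, and the median 0.45, and without CVST_Ligation_4_PBA replicate 1 the number was 3 of 9, beside 7.95%, and the median 0.55.

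**Figure D1:**
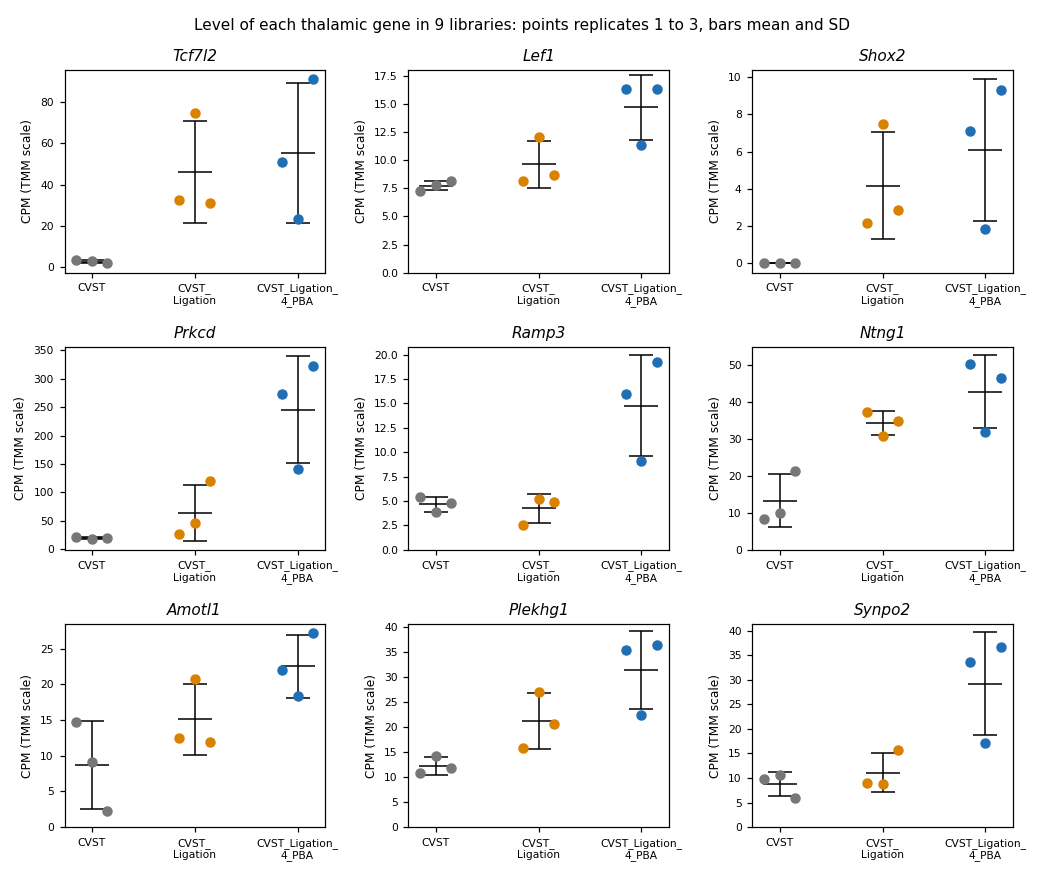
CPM on the TMM scale (vertical axes, linear) of the 9 thalamic genes in the groups CVST, CVST_Ligation and CVST_Ligation_4_PBA (horizontal axes). Points are replicates 1 to 3 from left to right, bars give the mean and SD of each group, and Shox2 is at 0 in all 3 CVST libraries.

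Of the 3 transcription factors, Tcf7l2 showed the widest gap between CVST and the other groups after Shox2. Tcf7l2 binds DNA with beta-catenin in the Wnt pathway and is needed for the identity of thalamic projection neurons. In replicates 1, 2 and 3, it stood at 3.36, 2.97 and 1.90 CPM in CVST, 32.4, 74.6 and 31.1 CPM in CVST_Ligation and 51.2, 23.5 and 91.3 CPM in CVST_Ligation_4_PBA. The highest CVST library, replicate 1, was below the lowest library of the other groups, CVST_Ligation_4_PBA replicate 2, so CVST did not overlap either group, while the groups with ligation overlapped each other. The mean of Tcf7l2 was 2.74 ± 0.756 CPM in CVST, 46.0 ± 24.7 CPM in CVST_Ligation and 55.3 ± 34.1 CPM in CVST_Ligation_4_PBA (SD, n = 3). The log2 fold change of Tcf7l2 was 4.06 ± 0.56 (SE) in CVST_Ligation against CVST, 0.27 ± 0.48 in CVST_Ligation_4_PBA against CVST_Ligation and 4.32 ± 0.57 in CVST_Ligation_4_PBA against CVST. Within CVST_Ligation the highest library was replicate 2, and within CVST_Ligation_4_PBA replicate 3 was 3.88 times replicate 2. The difference between CVST_Ligation_4_PBA and CVST_Ligation changed its sign to -0.30 without CVST_Ligation_4_PBA replicate 3 and was 0.82 without CVST_Ligation replicate 2.

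Shox2 is a homeodomain transcription factor that is expressed in developing and adult thalamic neurons and in the pacemaker region of the heart. Its counts were 0 in each of the 3 CVST libraries, 53, 145 and 65 in replicates 1 to 3 of CVST_Ligation, and 131, 44 and 244 in those of CVST_Ligation_4_PBA. Shox2 was thus not detected in CVST and was detected in each of the other 6 libraries. On the TMM scale the levels were 2.19, 7.47 and 2.86 CPM in CVST_Ligation and 7.10, 1.85 and 9.30 CPM in CVST_Ligation_4_PBA. A total of 0 counts over the 3 CVST libraries allows a level of up to 0.0465 CPM, taking 3 counts over the group as the floor, which covers counting error only. Against that floor, the mean of 4.17 ± 2.88 CPM (SD, n = 3) in CVST_Ligation was at least 89.8-fold higher, and the mean of 6.08 ± 3.83 CPM in CVST_Ligation_4_PBA at least 131-fold higher. Without CVST_Ligation replicate 2 the former bound was at least 54.3-fold, on a mean of 2.52 CPM, and without CVST_Ligation_4_PBA replicate 3 the latter was at least 96.2-fold. Over all libraries left out 1 at a time, CVST libraries included, the bounds were 54.3 to 111 and 83.1 to 176. The groups with ligation overlapped, and the log2 fold change of Shox2 in CVST_Ligation_4_PBA against CVST_Ligation was 0.55 ± 0.67 (SE), with 0.10 to 1.28 leaving out 1 library at a time and the highest value without CVST_Ligation replicate 2. In both groups the library highest in Tcf7l2 was also the highest in Shox2. The reads of Shox2 lie in a span that the gene Rsrc1 overlaps, and Rsrc1 had 547 to 973 counts in every library, the CVST libraries included.

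Lef1 is the partner of Tcf7l2 in the same family of DNA-binding Wnt effectors, and is also expressed in endothelial cells of the brain. Lef1 levels in replicates 1 to 3 were 7.31, 7.76 and 8.14 CPM in CVST, 8.14, 12.1 and 8.70 CPM in CVST_Ligation and 16.3, 11.4 and 16.4 CPM in CVST_Ligation_4_PBA. The CVST libraries lay within a narrow range, and the lowest CVST_Ligation library was barely above the highest CVST library, both rounding to 8.14 CPM. Mean Lef1 was 7.74 ± 0.415 CPM in CVST, 9.63 ± 2.12 CPM in CVST_Ligation and 14.7 ± 2.85 CPM in CVST_Ligation_4_PBA (SD, n = 3). As a log2 fold change, Lef1 was 0.32 ± 0.22 (SE) in CVST_Ligation against CVST, 0.61 ± 0.22 in CVST_Ligation_4_PBA against CVST_Ligation and 0.93 ± 0.22 in CVST_Ligation_4_PBA against CVST. Without CVST_Ligation replicate 2 the value in CVST_Ligation against CVST was 0.12. Replicates 1 and 3 of CVST_Ligation_4_PBA were above all other libraries, while replicate 2 lay inside the range of CVST_Ligation. Among the 9 genes, Lef1 had the smallest difference between CVST_Ligation_4_PBA and CVST.

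Of the genes of signalling, Prkcd encodes protein kinase C delta, a kinase activated by diacylglycerol without calcium and one of the most used markers of sensory thalamic nuclei. Replicates 1 to 3 had Prkcd at 21.8, 18.1 and 19.6 CPM in CVST, 26.1, 45.9 and 119 CPM in CVST_Ligation and 273, 141 and 323 CPM in CVST_Ligation_4_PBA. The 3 CVST libraries were close together, the CVST_Ligation libraries spanned from just above CVST to 4.57 times their lowest value, and each CVST_Ligation_4_PBA library was above every other library. On average Prkcd was 19.8 ± 1.86 CPM in CVST, 63.7 ± 49.0 CPM in CVST_Ligation and 246 ± 94.3 CPM in CVST_Ligation_4_PBA (SD, n = 3). The log2 fold change of Prkcd was 1.68 ± 0.50 (SE) in CVST_Ligation against CVST, 1.95 ± 0.50 in CVST_Ligation_4_PBA against CVST_Ligation and 3.63 ± 0.54 in CVST_Ligation_4_PBA against CVST. CVST_Ligation replicate 3 was the highest of its group in Prkcd, whereas replicate 2 was the highest in Tcf7l2 and Shox2. Leaving out 1 library at a time gave 0.86 to 2.05 in CVST_Ligation against CVST and 1.59 to 2.77 in CVST_Ligation_4_PBA against CVST_Ligation.

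Ramp3 encodes an accessory membrane protein that sets which peptide hormone, adrenomedullin or amylin, its partner receptors Calcrl and Calcr bind. Its replicates 1 to 3 were at 5.40, 3.86 and 4.77 CPM in CVST, 2.56, 5.26 and 4.92 CPM in CVST_Ligation and 15.9, 9.13 and 19.2 CPM in CVST_Ligation_4_PBA. CVST and CVST_Ligation overlapped, and all 3 CVST_Ligation_4_PBA libraries were above both. The mean of Ramp3 was 4.68 ± 0.774 CPM in CVST, 4.25 ± 1.47 CPM in CVST_Ligation and 14.8 ± 5.16 CPM in CVST_Ligation_4_PBA (SD, n = 3). For Ramp3, the log2 fold change was -0.14 ± 0.35 (SE) in CVST_Ligation against CVST, 1.80 ± 0.35 in CVST_Ligation_4_PBA against CVST_Ligation and 1.66 ± 0.35 in CVST_Ligation_4_PBA against CVST. Ramp3 was the single gene of the 9 that was not higher in CVST_Ligation than in CVST, and that difference was within the spread of the libraries and turned to 0.12 without CVST_Ligation replicate 1.

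Ntng1 encodes netrin-G1, a membrane-anchored adhesion protein on thalamic axons that binds Lrrc4c on their targets. Ntng1 was measured at 8.37, 9.98 and 21.4 CPM in CVST, 37.2, 30.6 and 34.8 CPM in CVST_Ligation and 50.2, 31.7 and 46.3 CPM in CVST_Ligation_4_PBA, replicates 1 to 3 in order. CVST replicate 3 was above its group, at 2.55 times the lowest CVST library, but below every library of the other groups. Mean Ntng1 was 13.2 ± 7.09 CPM in CVST, 34.2 ± 3.33 CPM in CVST_Ligation and 42.7 ± 9.74 CPM in CVST_Ligation_4_PBA (SD, n = 3). Its log2 fold change was 1.37 ± 0.34 (SE) in CVST_Ligation against CVST, 0.32 ± 0.33 in CVST_Ligation_4_PBA against CVST_Ligation and 1.69 ± 0.34 in CVST_Ligation_4_PBA against CVST. Without CVST replicate 3 the values against CVST were 1.88 for CVST_Ligation and 2.20 for CVST_Ligation_4_PBA. Ntng1 thus differed from CVST by a similar amount in both other groups, and these overlapped each other. Its spread within CVST_Ligation was small, with the highest library at 1.22 times the lowest, where Prkcd and Tcf7l2 varied more.

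The remaining 3 genes encode proteins of cell junctions and the cytoskeleton and are not restricted to neurons. Amotl1 encodes a protein of the angiomotin family at tight junctions, which binds the Hippo effector Yap1. Amotl1 stood, from replicate 1 to 3, at 14.7, 9.09 and 2.28 CPM in CVST, 12.5, 20.8 and 11.96 CPM in CVST_Ligation and 22.1, 18.4 and 27.2 CPM in CVST_Ligation_4_PBA. CVST replicate 1 was above 2 of the 3 CVST_Ligation libraries, so these groups overlapped, whereas every CVST_Ligation_4_PBA library was above every CVST library. On average Amotl1 was 8.68 ± 6.20 CPM in CVST, 15.1 ± 4.93 CPM in CVST_Ligation and 22.5 ± 4.43 CPM in CVST_Ligation_4_PBA (SD, n = 3). Its CVST libraries were the most uneven among the 8 genes detected in that group, with replicate 1 at 6.43 times replicate 3. The log2 fold change of Amotl1 was 0.79 ± 0.52 (SE) in CVST_Ligation against CVST, 0.58 ± 0.52 in CVST_Ligation_4_PBA against CVST_Ligation and 1.37 ± 0.52 in CVST_Ligation_4_PBA against CVST. Leaving out 1 library at a time gave 0.32 to 1.39 in the first of these and 0.91 to 1.99 in the last, both highest without CVST replicate 1.

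Plekhg1 encodes an exchange factor that activates small GTPases and is also made by endothelial cells. The levels of replicates 1 to 3 were 10.7, 14.2 and 11.8 CPM in CVST, 15.9, 27.0 and 20.7 CPM in CVST_Ligation and 35.4, 22.5 and 36.3 CPM in CVST_Ligation_4_PBA for Plekhg1. Each CVST_Ligation library was above each CVST library, and CVST_Ligation_4_PBA overlapped CVST_Ligation through its replicate 2. The mean of Plekhg1 was 12.2 ± 1.81 CPM in CVST, 21.2 ± 5.56 CPM in CVST_Ligation and 31.4 ± 7.74 CPM in CVST_Ligation_4_PBA (SD, n = 3). As a log2 fold change, Plekhg1 was 0.79 ± 0.25 (SE) in CVST_Ligation against CVST, 0.57 ± 0.25 in CVST_Ligation_4_PBA against CVST_Ligation and 1.36 ± 0.25 in CVST_Ligation_4_PBA against CVST. Among the 9 genes, Plekhg1 followed the mean of the other 8 most closely over the 9 libraries (Pearson r = 0.96).

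Synpo2 encodes an actin-binding protein of the podin family, known from muscle. For Synpo2, replicates 1 to 3 were at 9.77, 10.6 and 5.91 CPM in CVST, 8.97, 8.71 and 15.6 CPM in CVST_Ligation and 33.6, 17.2 and 36.7 CPM in CVST_Ligation_4_PBA. CVST_Ligation overlapped CVST, with replicate 3 above the other 2 of its group, and all CVST_Ligation_4_PBA libraries were above all others. Mean Synpo2 was 8.75 ± 2.49 CPM in CVST, 11.1 ± 3.93 CPM in CVST_Ligation and 29.2 ± 10.5 CPM in CVST_Ligation_4_PBA (SD, n = 3). Its log2 fold change was 0.34 ± 0.35 (SE) in CVST_Ligation against CVST, 1.39 ± 0.36 in CVST_Ligation_4_PBA against CVST_Ligation and 1.74 ± 0.36 in CVST_Ligation_4_PBA against CVST. Leaving out 1 library at a time gave Synpo2 0.01 to 0.50 in CVST_Ligation against CVST, the lowest without CVST_Ligation replicate 3. Prkcd, Ramp3 and Synpo2 were thus the 3 genes with a gap between CVST_Ligation_4_PBA and CVST_Ligation, while Tcf7l2, Shox2, Ntng1 and Plekhg1 had their gap between CVST and CVST_Ligation, with Prkcd showing both. Lef1 was nearly level between CVST and CVST_Ligation (8.137 against 8.141 CPM at the nearest libraries). Its log2 fold change was larger in CVST_Ligation_4_PBA against CVST_Ligation (0.61) than in CVST_Ligation against CVST (0.32).

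**Figure D2:**
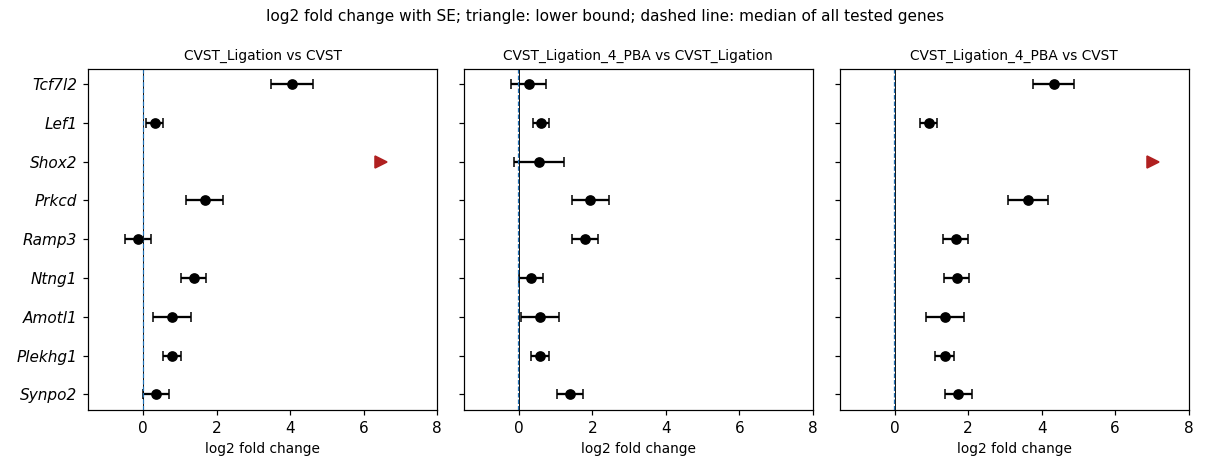
log2 fold change (horizontal axes) of each of the 9 thalamic genes with its SE in the 3 comparisons, from the model over all 9 libraries. Red triangles mark Shox2 against CVST as a lower bound, the dashed line is the median of all 14746 genes tested, and Ramp3 lies at -0.14 ± 0.35 in CVST_Ligation against CVST.

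Levels of different genes were compared per length, with the deposited FPKM values. In CVST the order by mean FPKM was Ramp3 (10.3 ± 1.59, SD, n = 3), Prkcd (8.73 ± 0.757), Ntng1 (5.95 ± 3.05), Lef1 (5.90 ± 0.283), Amotl1 (2.78 ± 1.98), Plekhg1 (2.59 ± 0.435), Synpo2 (2.25 ± 0.684), Tcf7l2 (1.29 ± 0.371) and Shox2 at 0. Neighbours in that order overlapped in their libraries, except that Amotl1 was below Lef1 and Shox2 below Tcf7l2 in every library. Ramp3 has a recovered length of 441 bases, the shortest of the 9, which places it high per length although its CPM was low. In CVST_Ligation Prkcd (28.5 ± 21.2) and Tcf7l2 (22.3 ± 12.6) led, followed by Ntng1 (15.9 ± 1.33), and these 3 overlapped. Tcf7l2 and Ntng1 did not overlap Ramp3 (9.66 ± 3.40), whereas the lowest library of Prkcd, at 11.8 FPKM, was below the highest of Ramp3, at 12.3 FPKM. Below Ramp3, Lef1, Amotl1, Plekhg1, Shox2 and Synpo2 followed with overlap between neighbours, down to 2.91 ± 0.952 FPKM for Synpo2. In CVST_Ligation_4_PBA Prkcd (114 ± 45.5) did not overlap the next gene, Ramp3 (34.4 ± 12.6), and 90.6% of the tested genes had a lower mean FPKM than Prkcd, against 40.9% in CVST. Tcf7l2 (27.4 ± 17.3) and Ntng1 (20.3 ± 4.84) came after Ramp3 with overlap. Lef1 (11.8 ± 2.45) lay below Ntng1 with no overlap, and Synpo2, Amotl1, Plekhg1 and Shox2 (6.32 ± 4.05) followed with overlap. Tcf7l2 moved from place 8 in CVST to place 2 in CVST_Ligation and place 3 in CVST_Ligation_4_PBA. Summed over the 9 genes, FPKM came to 41.9, 37.8 and 39.7 in replicates 1 to 3 of CVST, 69.0, 118 and 115 in CVST_Ligation and 256, 137 and 317 in CVST_Ligation_4_PBA.

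The 9 genes varied together over the 9 libraries, as the way they were chosen implies. Over the 36 pairs, Pearson's r of log2 CPM ranged from 0.38 for Ntng1 with Amotl1 to 0.99 for Tcf7l2 with Shox2, with a median of 0.77. Shox2 had 0 counts in every CVST library, so its log2 CPM there was set by the prior count. Each r of Shox2 rests in part on that floor. After each library's deviation from its own group mean was taken, which removes the differences between groups, the median r was 0.44, and 33 of the 36 pairs were above 0. In these deviations Lef1 and Shox2 were the most alike pair (r = 0.97), and Ntng1 and Amotl1 the least (r = -0.81). Against the mean of the other 8 genes, the r of deviations was 0.88 for Ramp3, 0.87 for Shox2, 0.84 for Plekhg1 and 0.83 for Tcf7l2. For Amotl1 it was 0.26, although Amotl1 had an r of deviations of 0.62 with Tcf7l2, and for Ntng1 it was -0.08. Genes of 1 library share its depth and its tissue sample, and these correlations are descriptions over 9 libraries.

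Among the 14737 other genes tested, those most like the mean of the 9 thalamic genes over the 9 libraries included, in order, Ano5 (r = 0.980, r of deviations 0.82), Vipr2 (r = 0.978, r of deviations 0.84), Lmx1a (r = 0.968, r of deviations 0.62), Chrna3 (r = 0.962, r of deviations 0.75), Gabrr2 (r = 0.951, r of deviations 0.34), Icam2 (r = 0.949, r of deviations 0.82) and F2r (r = 0.948, r of deviations 0.60). Vipr2, a receptor for vasoactive intestinal peptide, stood at 0.340, 0.355 and 0.434 CPM in CVST and 2.93, 1.35 and 2.63 CPM in CVST_Ligation_4_PBA. Lmx1a, a homeodomain factor of the midbrain, had 0 CPM in every CVST library and was above 0 in each of the other 6, with 0.165, 0.515 and 0.835 CPM in CVST_Ligation and 1.52, 1.22 and 1.79 CPM in CVST_Ligation_4_PBA. Chrna3, a nicotinic receptor subunit abundant in the habenula next to the thalamus, was at 0.637, 0.443 and 0.542 CPM in CVST and at 3.25, 2.86 and 7.81 CPM in CVST_Ligation_4_PBA. The 3 least alike genes were Fbxo31 (r = -0.960, r of deviations -0.73), Map3k10 (r = -0.965, r of deviations -0.69) and Vps9d1 (r = -0.965, r of deviations -0.56), which had no overlap between CVST_Ligation_4_PBA and CVST and were lower in the former. Of the genes ranked, 27 had an r above 0.9, and the median r over all was -0.00399.

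A list of 18 other genes of thalamic neurons, which holds none of the 9, was tested with edgeR across all 14746 genes. Every gene of the list was tested. Like the other lists, it was chosen with earlier results of these data known. Its counts come from the same 9 libraries that served to select the 9 genes, so they are not independent of that selection. In CVST_Ligation against CVST, 7 of the 18 were higher at an unadjusted p below 0.05 and 0 lower, beside 5.47% and 4.18% of all tested genes, and the median log2 fold change of the list was 0.90. After adjustment over all genes edgeR called 0 of the 18 and DESeq2 4, where DESeq2 called 264 and edgeR 3 of all tested genes, for edgeR 0.0203%. Without CVST_Ligation replicate 2, edgeR called 1 of the 18 and 7 of all genes. In CVST_Ligation_4_PBA against CVST_Ligation, 3 were higher and 0 lower at an unadjusted p below 0.05, beside 1.81% and 1.42% of all genes, and the median was -0.31. That count was 0 without CVST_Ligation_4_PBA replicate 3, 1 without CVST_Ligation_4_PBA replicate 1, 1 without CVST_Ligation replicate 1 and 5 without CVST_Ligation replicate 2. Over all genes, higher or lower, the same fits gave 596 of 14921, 500 of 14958, 337 of 14970 and 1497 of 14950 in that order. After adjustment edgeR and DESeq2 called 0 of the 18 there, and edgeR 0% of all genes, with 476 genes at an unadjusted p below 0.05 and 22 called by DESeq2. In CVST_Ligation_4_PBA against CVST, 7 were higher and 0 lower at an unadjusted p below 0.05, beside 8.07% and 7.33% of all genes, with a median of 0.63, and 1 of the 18 passed after adjustment, where edgeR called 0.122% of all tested genes, and DESeq2 called 5 of the 18 and 855 of all tested genes.

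The 1 gene past the adjusted threshold was Slitrk6, a synaptic adhesion protein, at 0.637, 0.222 and 0.271 CPM in replicates 1 to 3 of CVST, 1.94, 1.24 and 2.15 CPM in CVST_Ligation and 4.93, 2.86 and 6.44 CPM in CVST_Ligation_4_PBA. Its groups were fully apart in all 3 comparisons, and its log2 fold change in CVST_Ligation_4_PBA against CVST was 3.62 ± 0.52 (SE; adjusted p = 0.044, edgeR). Without CVST replicate 1 or 2, or without any 1 of the 3 CVST_Ligation_4_PBA libraries, edgeR called 0 of the 18 genes in this comparison, and without CVST replicate 3 it called 3. Over all genes it called 2 to 35 in the former fits and 162 in the latter, against 18 with every library kept. Slc17a6, the vesicular glutamate transporter of thalamic and other subcortical neurons, stood at 12.3, 17.6 and 13.2 CPM in CVST, 37.0, 134 and 53.7 CPM in CVST_Ligation and 88.5, 90.1 and 91.7 CPM in CVST_Ligation_4_PBA. CVST was thus below both other groups in Slc17a6, which overlapped each other, with an adjusted p of 0.174 in CVST_Ligation and 0.0518 in CVST_Ligation_4_PBA against CVST. Gbx2, a homeodomain factor of thalamic neurons, was at 0.255, 0.0443 and 0 CPM, 0.951, 0.258 and 1.32 CPM and 2.66, 1.56 and 4.38 CPM in the 3 groups in that order, each group above the one before it, though CVST replicate 1, with 6 counts, and CVST_Ligation replicate 2, with 5, were nearly level. Tnnt1, a troponin that marks sensory thalamic nuclei, was at 3.87, 6.96 and 3.47 CPM, 5.95, 6.18 and 28.2 CPM and 59.9, 15.6 and 52.6 CPM, and in both groups with ligation its lowest library was also the lowest in Prkcd.

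Rgs16, a regulator of G-protein signalling, showed a log2 fold change of 1.23 ± 0.42 in CVST_Ligation_4_PBA against CVST, the calcium-binding protein gene Calb2 2.87 ± 0.81 and the transcription factor gene Lhx9 2.44 ± 0.91 (SE), each at an unadjusted p below 0.05 and none past the adjusted threshold. In CVST_Ligation against CVST, those at an unadjusted p below 0.05 included Calb2, Zic1, Lhx9, Gbx2, Slc17a6 and Slitrk6. For Zic1 the highest level was in CVST_Ligation replicate 2, at 137 CPM against 5.74 and 13.5 CPM in replicates 1 and 3. The log2 fold changes of Rora, Foxp2, Zic4, Plcb4, Adarb1 and Necab1 in CVST_Ligation_4_PBA against CVST lay between -0.07 and 0.70, and those of Cacna1g, Gabrd and Lhx2 were -0.37 ± 0.21, -0.92 ± 0.51 and -0.77 ± 0.40. At or above 1 CPM in every CVST library were 13 of the 18 genes and 8 of the 9 thalamic genes. CVST_Ligation replicate 2 was the highest library for 9 of the 18. Over the 9 libraries, r with the mean of the 9 was 0.95 for Slitrk6, 0.92 for Slc17a6 and 0.90 for Gbx2, and -0.57 for Lhx2 at the other end.

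Relatives of the 9 genes were tested as families, here with log2 fold changes ± SE in CVST_Ligation_4_PBA against CVST and counts at an unadjusted p below 0.05. Of 8 other protein kinase C genes, 1 higher and 2 lower passed there, 0 higher and 2 lower in CVST_Ligation against CVST and 2 higher and 1 lower in CVST_Ligation_4_PBA against CVST_Ligation, with Prkcq higher in both comparisons of CVST_Ligation_4_PBA (1.18 ± 0.25, adjusted p = 0.0684, edgeR). Of all tested genes 8.07% were higher and 7.33% lower at that p in CVST_Ligation_4_PBA against CVST, 5.47% and 4.18% in CVST_Ligation against CVST, and 1.81% and 1.42% in CVST_Ligation_4_PBA against CVST_Ligation. Tcf7 and Tcf7l1, the remaining genes of the family of Tcf7l2 and Lef1, were at -0.62 ± 0.37 and 0.26 ± 0.32, and neither reached an unadjusted p of 0.05 in any comparison. Of the partners and relatives of Ramp3, Ramp1 and Ramp2 were at -0.34 ± 0.24 and 0.04 ± 0.27, and the receptors Calcr and Calcrl at 3.70 ± 1.10 and 0.92 ± 0.36, the latter pair at an unadjusted p below 0.05. Of Ntng2, a paralogue of Ntng1, and the related genes Lrrc4, Lrrc4b and Lrrc4c, 0 were higher and 3 lower at that p, with Lrrc4c, which binds netrin-G1, at -0.60 ± 0.24. Of 8 genes around the angiomotins, 2, Amot (0.97 ± 0.32) and Amotl2 (1.16 ± 0.34), were higher, and in CVST_Ligation against CVST the same 2 and Lats1 (0.58 ± 0.22). Plekhg3 was the 1 of 5 Plekhg genes that was higher (0.95 ± 0.31), and Synpo, the relative of Synpo2, was at -0.27 ± 0.42. Of 4 genes that Shox2 is known to act with in the heart or the thalamus, Hcn4 (1.22 ± 0.38), Tbx3 (0.94 ± 0.37) and Isl1 (1.99 ± 0.83) were higher and Cacna1g was not past that p, and Hcn4 was also higher in CVST_Ligation against CVST and Isl1 in CVST_Ligation_4_PBA against CVST_Ligation. In the comparisons not mentioned, 0 genes of the families of Ramp3, Ntng1, Amotl1, Plekhg1, Shox2 and Synpo2 passed. Medians of the 8 families in CVST_Ligation_4_PBA against CVST ranged from -0.60 to 1.08. After adjustment edgeR called 0 genes of these 8 families in any of the 3 comparisons.

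Tcf7l2 and Lef1 act at the end of the Wnt pathway, and of 65 other genes of that pathway 60 were tested. At an unadjusted p below 0.05, 6 higher and 4 lower were counted in CVST_Ligation against CVST (median 0.16), in CVST_Ligation_4_PBA against CVST_Ligation 2 higher and 1 lower (median -0.11), and in CVST_Ligation_4_PBA against CVST 10 higher and 3 lower (median 0.10). Shares of all tested genes higher and lower at that p were 5.47% and 4.18%, 1.81% and 1.42%, and 8.07% and 7.33% in the same order. After adjustment edgeR called 0 of the 60 in each. Of 15 receptors, 5 were higher in CVST_Ligation_4_PBA against CVST and 0 lower, and of 7 genes of the destruction complex, 0 were higher and 1 lower. Of 10 targets tested, 1 was higher and 0 lower, and Axin2, the usual readout of the pathway, was at -0.17 ± 0.19. Among those with the smallest p in CVST_Ligation against CVST, the secreted inhibitor gene Sfrp5 was at 3.35 ± 0.76, the agonist gene Rspo1 at -1.62 ± 0.52 and the receptor gene Fzd1 at 1.16 ± 0.38. A list of 14 channel genes of thalamic firing held 3 T-type calcium, 4 HCN and 7 potassium channels. Of these, 1, Hcn4, was higher in each comparison against CVST at an unadjusted p below 0.05, and 0 in CVST_Ligation_4_PBA against CVST_Ligation. After adjustment 0 of the 14 were called by edgeR, and their median in CVST_Ligation_4_PBA against CVST was 0.04. Kcnk9, next to Hcn4 by p, was at 0.98 ± 0.46 in CVST_Ligation against CVST. Of 8 genes of the habenula, which adjoins the thalamus, 3 were higher in CVST_Ligation against CVST, 3 in CVST_Ligation_4_PBA against CVST_Ligation and 4 in CVST_Ligation_4_PBA against CVST, 0 were lower, edgeR called 0 after adjustment, and the median in the latter was 2.00. Chrna3 (3.09 ± 0.54), Chrnb4 (4.70 ± 1.52) and Pou4f1 (6.98 ± 1.85) were 3 of the 4. For 2 of them single libraries stood out over a base near 0, with counts of 2, 167 and 21 for Pou4f1 in CVST_Ligation_4_PBA over 1, 0 and 0 in CVST, and of 8, 12 and 82 for Chrnb4 over 1, 0 and 2.

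Markers of the midbrain were, like most of the 9 thalamic genes, higher in both other groups than in CVST, and their part in the result was not tested. Of 9 markers of midbrain dopamine neurons, all tested, 8 were higher in CVST_Ligation against CVST at an unadjusted p below 0.05, beside 5.47% of all tested genes, and 2 after adjustment, Slc18a2 (adjusted p = 0.00337, edgeR) and Ddc (adjusted p = 0.0411), with a median log2 fold change of 5.63. Without CVST replicate 1, edgeR called 0 of all genes in this comparison. In CVST_Ligation_4_PBA, 0 of the 9 passed against CVST_Ligation, beside 1.81% of all tested genes higher and 1.42% lower, and 8 were higher against CVST, beside 8.07%. Of the latter 4 passed after adjustment, beside 0.122% of all tested genes, where leaving out 1 library gave 2 to 162 calls over all genes. Summed over the list, they came to 86.2, 151 and 179 CPM in CVST, 396, 552 and 362 CPM in CVST_Ligation and 449, 389 and 482 CPM in CVST_Ligation_4_PBA, with Aldh1a1 the most abundant per length and Pitx3 and Foxa2 at 0 in all 3 CVST libraries. Slc6a3, the dopamine transporter, stood at 0.425, 0 and 0.108 CPM in CVST, 66.2, 5.62 and 44.7 CPM in CVST_Ligation and 69.5, 54.4 and 58.3 CPM in CVST_Ligation_4_PBA, so that CVST was apart from the other groups as it was in Tcf7l2 and Shox2. Of 8 transcription factors of midbrain and brainstem, 7 were tested and 6 were higher in CVST_Ligation against CVST (median 5.03), 6 also in CVST_Ligation_4_PBA against CVST, 1 higher and 1 lower in CVST_Ligation_4_PBA against CVST_Ligation, and 0 after adjustment in edgeR. Their sums were 2.55, 4.08 and 3.36 CPM in CVST, 14.5, 61.5 and 13.8 CPM in CVST_Ligation and 25.7, 13.5 and 20.8 CPM in CVST_Ligation_4_PBA. Otx2 was the most abundant, Lhx5 and Pax7 were at 0 in CVST, and Gata3, Lhx5 and Lhx1 had the smallest p, with Gata3 at 4.55, 10.7 and 3.65 CPM in CVST_Ligation. Lhx5, Pitx3 and Foxa2 passed the filter on low counts only through the groups in which they were above 0. Their fold changes against CVST are thus fitted over a base of 0, and the counts and medians of both lists include them.

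Markers of the hypothalamus, below the thalamus, separated CVST_Ligation_4_PBA from both other groups, as Prkcd, Ramp3 and Synpo2 did. Of 9, 7 were tested, and at an unadjusted p below 0.05 2 were higher and 1 lower in CVST_Ligation against CVST, beside 5.47% and 4.18% of all tested genes. In CVST_Ligation_4_PBA 6 were higher against CVST_Ligation, beside 1.81% of all tested genes (median 5.57), and 6 against CVST, beside 8.07%. After adjustment 2 of them passed in the latter, beside 0.122%, Hcrt (adjusted p = 0.0108, edgeR) and Pmch (adjusted p = 0.0381), and 0 in the former, where DESeq2 gave 22 calls over all genes. Without CVST replicate 1 or CVST_Ligation_4_PBA replicate 1, edgeR called 2 genes in all against CVST, so the 2 calls here and the 4 of dopamine markers did not all remain. Sums were 13.3, 5.19 and 42.1 CPM in CVST, 18.7, 5.46 and 56.7 CPM in CVST_Ligation and 297, 509 and 579 CPM in CVST_Ligation_4_PBA. Pmch, the most abundant, stood at 0.255, 0.532 and 0.922 CPM, 0.909, 1.19 and 17.0 CPM and 213, 316 and 378 CPM in the 3 groups, and Sim1 was at 0 in CVST. Of the 9 markers, 2 were at or above 1 CPM in every CVST library. Most fold changes of this list against CVST, the call of Pmch among them, are thus fitted over a low base, and the counts include them. Whether the tissue pieces taken differed between the groups and whether the treatments acted on these genes cannot be told apart from these libraries, since each library is from 1 mouse of 1 group.

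Markers of cortex and striatum were lower in CVST_Ligation, where most of the 9 thalamic genes were higher. Over all tested genes, 5.47% were higher and 4.18% lower at an unadjusted p below 0.05 in CVST_Ligation against CVST. The shares were 1.81% and 1.42% in CVST_Ligation_4_PBA against CVST_Ligation, and 8.07% and 7.33% in CVST_Ligation_4_PBA against CVST. Of 10 markers of cortical excitatory neurons, 0 were higher and 6 lower in CVST_Ligation against CVST at an unadjusted p below 0.05, beside 4.18% of all tested genes lower, with Tbr1, Lamp5 and Cux2 leading, 0 and 2 in CVST_Ligation_4_PBA against CVST_Ligation, and 0 and 7 in CVST_Ligation_4_PBA against CVST, none after adjustment in edgeR, and the median in the latter was -1.58. Their sums were 2465, 2287 and 2561 CPM in CVST, 1883, 667 and 1889 CPM in CVST_Ligation and 766, 785 and 1073 CPM in CVST_Ligation_4_PBA, with Slc17a7 the most abundant. Of 10 striatal markers, 10 were lower in CVST_Ligation against CVST at an unadjusted p below 0.05, led by Ppp1r1b, Rgs9 and Gpr6 (median -2.27), 2 were higher in CVST_Ligation_4_PBA against CVST_Ligation and 2 lower in CVST_Ligation_4_PBA against CVST, none after adjustment. Their sums were 1934, 1459 and 1075 CPM in CVST, 229, 298 and 537 CPM in CVST_Ligation and 537, 1361 and 269 CPM in CVST_Ligation_4_PBA, with Penk the most abundant. CVST_Ligation_4_PBA replicate 2, the lowest of its group in 9 of the 9 thalamic genes, was the highest of its group in striatal markers. The 6 cerebellar markers, of which Car8 was the most abundant and Gabra6 at 0 in CVST and CVST_Ligation_4_PBA, summed to 22.9, 25.7 and 27.0 CPM in CVST, 26.7, 1340.0 and 63.6 CPM in CVST_Ligation and 23.2, 32.1 and 33.2 CPM in CVST_Ligation_4_PBA, and the 3 serotonergic ones, led by Tph2 and with Fev at 0 in CVST, to 1.02, 1.42 and 1.03 CPM in CVST, 1.36, 242 and 0.967 CPM in CVST_Ligation and 0.921, 0.968 and 2.17 CPM in CVST_Ligation_4_PBA. Of the cerebellar markers 4 were tested, 4 were higher in CVST_Ligation against CVST, 3 lower in CVST_Ligation_4_PBA against CVST_Ligation and 0 past an unadjusted p of 0.05 in CVST_Ligation_4_PBA against CVST, and Tph2, the 1 serotonergic gene tested, was higher, lower and not past that p in the same order, none after adjustment. Both sums were highest in CVST_Ligation replicate 2, which was the highest of its own group for 6 of the 9 thalamic genes and the highest of the 9 libraries for 0. Of 5 hippocampal markers 1, Prox1, was higher in both comparisons against CVST and 0 in CVST_Ligation_4_PBA against CVST_Ligation, 0 after adjustment, and their sums were 17.8, 20.6 and 77.8 CPM in CVST, 138, 26.4 and 97.5 CPM in CVST_Ligation and 51.9, 36.8 and 92.9 CPM in CVST_Ligation_4_PBA, with Spink8 the most abundant.

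**Figure D3:**
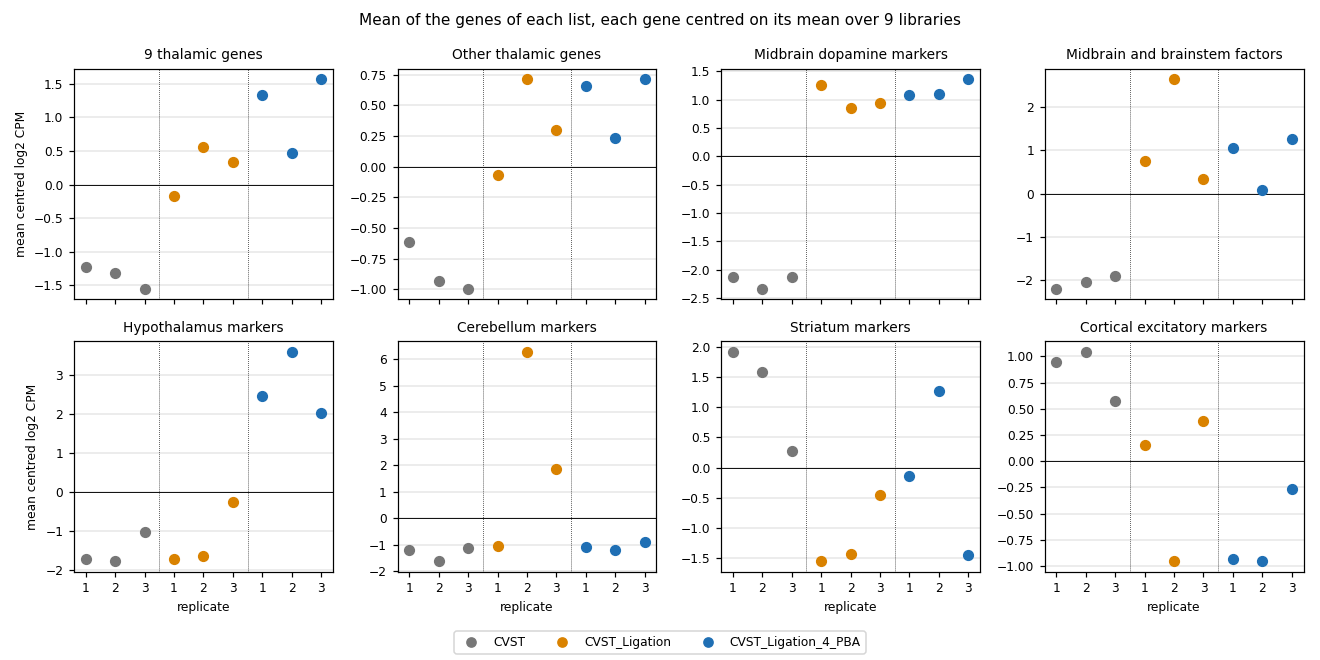
Mean log2 CPM of the genes of each list in each library (vertical axes), every gene centred on its mean over the 9 libraries. Points are libraries in the order of groups and replicates (horizontal axes), and dotted lines part the groups. The 9 thalamic genes and the dopamine markers are lowest in CVST, the hypothalamic markers are high in CVST_Ligation_4_PBA, and the cerebellar markers are highest in CVST_Ligation replicate 2.

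Markers of cell types were tested beside those of brain divisions. Of all tested genes, 5.47% were higher and 4.18% lower at an unadjusted p below 0.05 in CVST_Ligation against CVST, 1.81% and 1.42% in CVST_Ligation_4_PBA against CVST_Ligation, and 8.07% and 7.33% in CVST_Ligation_4_PBA against CVST. Of 12 genes of the oligodendrocyte lineage, 1 was higher in CVST_Ligation against CVST, 0 in CVST_Ligation_4_PBA against CVST_Ligation and 10 in CVST_Ligation_4_PBA against CVST at an unadjusted p below 0.05 (median 0.69), so that this list, like the 9 thalamic genes, was higher in CVST_Ligation_4_PBA than in CVST. They summed to 2901, 3338 and 3638 CPM in CVST, 2861, 6352 and 4552 CPM in CVST_Ligation and 7864, 5556 and 5023 CPM in CVST_Ligation_4_PBA, with Mbp the most abundant. Of 9 microglial genes, 5 were lower in CVST_Ligation against CVST and 4 in CVST_Ligation_4_PBA against CVST, of 6 general neuronal genes 2, Rbfox3 and Snap25, were lower in both, and 0 of either list were higher. In CVST_Ligation_4_PBA against CVST_Ligation 0 microglial genes and the same pair of neuronal genes, both lower, were past that p. Of 11 endothelial genes 0 passed in any comparison. In CVST_Ligation_4_PBA against CVST, 2 of 7 mural, 1 of 8 astrocytic, 2 of 6 choroid plexus, 1 of 6 meningeal, 0 of 5 erythrocyte and 1 of 5 T cell genes were higher, and 0 were lower, with 1 of the T cell genes, Lck, tested. In CVST_Ligation against CVST the same lists had 2, 3, 0, 0, 2 and 0 genes higher and 0 lower, and in CVST_Ligation_4_PBA against CVST_Ligation 2 of the choroid plexus genes higher and 0 of the others. Choroid plexus genes summed to 831, 787 and 979 CPM in CVST, 96.9, 14.5 and 859 CPM in CVST_Ligation and 3125, 659 and 443 CPM in CVST_Ligation_4_PBA. After adjustment edgeR called 0 genes of these 10 lists.

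On the build GRCm38.p6, 4 of the 9 lie on chromosome 3, Shox2 (chr3:66971723-66981771), Ntng1 (chr3:109780050-110149972), Synpo2 (chr3:123076519-123236168) and Lef1 (chr3:131110297-131224357), where 4.85% of the tested genes with a position lie. The other 5 are on separate chromosomes, Amotl1 on 9, Plekhg1 on 10, Ramp3 on 11, Prkcd at chr14:30595353-30626414 and Tcf7l2 at chr19:55741797-55933659. All 9 are protein-coding. Promoters by RefSeq on the same build, from 250 bases before to 50 after the start of transcription, were matched for 9 of 9 genes, 14 promoters in all.

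Since Tcf7l2, Lef1 and Shox2 are themselves transcription factors, 2 motifs were looked for on both strands. The core CTTTGA, reverse complement TCAAAG, that TCF and LEF proteins bind was found in 3 of the 14 promoters, those of 3 of the 9 genes, Prkcd, Lef1 and Shox2, and in 16.0% of all 32851 promoters of that length and 14.5% of the 11572 tested genes with a promoter. The homeodomain core TAATTA, which reads the same on both strands, was found in 1 of the 14, that of Synpo2, and in 5.29% of all promoters and 3.52% of those tested genes. Of 12 other thalamic genes with a promoter in the table, 1 held CTTTGA and 1 TAATTA. The RefSeq promoters with a match (GRCm38.p6) are printed 5′ to 3′ on the strand of the gene, with the match in capitals. Of the 4 promoters of Lef1 the other 3, among them those at the start of the gene, held no match, and of the 2 of Prkcd the other held none. In Shox2 and Prkcd the match begins 139 bases before the start, in Lef1 180 and 120 bases, and in Synpo2 224 bases. A match is a description, not a site, and no binding was measured.
Shox2 promoter, chr3:66981722-66982021, strand minus: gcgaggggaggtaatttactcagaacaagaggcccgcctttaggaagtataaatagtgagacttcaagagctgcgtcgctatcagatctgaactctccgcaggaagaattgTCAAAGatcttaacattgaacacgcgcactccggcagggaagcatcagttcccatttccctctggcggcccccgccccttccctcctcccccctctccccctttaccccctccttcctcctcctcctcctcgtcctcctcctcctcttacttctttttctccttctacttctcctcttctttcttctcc
Prkcd promoter, chr14:30626159-30626458, strand minus: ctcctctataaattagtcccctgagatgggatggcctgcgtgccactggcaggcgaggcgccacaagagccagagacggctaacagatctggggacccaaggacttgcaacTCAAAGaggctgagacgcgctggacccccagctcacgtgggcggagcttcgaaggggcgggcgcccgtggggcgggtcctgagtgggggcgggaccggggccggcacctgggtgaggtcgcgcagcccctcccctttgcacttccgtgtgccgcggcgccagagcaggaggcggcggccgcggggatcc
Lef1 promoter, chr3:131156044-131156343, strand plus: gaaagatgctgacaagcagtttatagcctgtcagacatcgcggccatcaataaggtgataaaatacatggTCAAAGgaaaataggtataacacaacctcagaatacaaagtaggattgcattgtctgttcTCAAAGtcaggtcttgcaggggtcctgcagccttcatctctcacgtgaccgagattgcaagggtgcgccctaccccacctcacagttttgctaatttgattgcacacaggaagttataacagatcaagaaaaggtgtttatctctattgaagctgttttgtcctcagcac
Synpo2 promoter, chr3:123236100-123236399, strand minus: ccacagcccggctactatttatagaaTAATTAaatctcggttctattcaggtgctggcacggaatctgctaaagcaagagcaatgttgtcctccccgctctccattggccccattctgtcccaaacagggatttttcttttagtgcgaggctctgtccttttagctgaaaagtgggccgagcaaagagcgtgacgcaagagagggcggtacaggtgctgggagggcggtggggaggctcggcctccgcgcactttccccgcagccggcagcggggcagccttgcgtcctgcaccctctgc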

How the data were processed

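Whole-tissue RNA of 9 mouse brain samples was measured. Samples were grouped by their titles, which also give replicate numbers. Per the submitters' processing notes and the methods, the authors trimmed reads with fastp, aligned them with HISAT2 to mm10 (GRCm38), assembled with StringTie and quantified with RSEM, with no versions given. Which program made the deposited whole-number counts is not stated apart from this. The authors deposited counts, whole reads per gene without normalization, for 20731 symbols. The authors also deposited FPKM values: each equals the count divided by the library total and by 1 whole-number length per gene, for 17446 genes. The methods name TPM as the measure of abundance. Counting of overlapping or near-identical genes is not stated.

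The count analysis ran on R 4.3.3 and edgeR 4.0.16 (filterByExpr, TMM, quasi-likelihood test, 3 groups in 1 fit, no covariates, Benjamini-Hochberg adjustment at 0.05), which kept 14746 genes. The fit was tested on simulated data. CPM are on the TMM scale, correlations use log2 CPM with a prior count of 2, and floors of 3 counts cover counting error only. Within groups no library repeated another. DESeq2 1.42.0 and limma 3.58.1, the latter on log2(FPKM + 1) and log2(FPKM + 0.1), other scalings and filters, 2-group fits, a replicate block and leaving out each library were alternatives.

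The 9 genes and the 30 gene lists were chosen with earlier results of these data known. Named were the 9 genes, the other thalamic genes, from each other list up to 3 genes with the smallest p in CVST_Ligation against CVST, all genes of families of up to 4, the most abundant marker per list and any extreme a sentence needed, and genes among the 8 most and 3 least alike. Some genes that fit this rule are not reported here. Other genes named, such as Slc6a4 and Axin2, were chosen after their values were seen.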

Additional observations from a re-analysis of the deposited data

How the results depend on the processing

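The number of genes called by edgeR depended on the settings, and the cause was not tested. In CVST_Ligation against CVST it was 3, with 264 by DESeq2, 0 with a filter of 10 counts per library, 1 with only the 2 groups fitted, 1 with the replicate block, 13 by limma on log2(FPKM + 0.1), and 0 to 7 leaving out 1 library. In CVST_Ligation_4_PBA against CVST_Ligation it was 0, with 476 genes at an unadjusted p below 0.05, 22 by DESeq2, 1 with the replicate block, 2 by limma on log2(FPKM + 1), and 0 to 2 leaving out 1 library. In CVST_Ligation_4_PBA against CVST it was 18, with 855 by DESeq2, 112 with a filter of 1 count, 6 at 10 counts, 234 with 2 groups, 25 with the block, 87 and 134 by limma with 1 and 0.1 added, and 2 to 162 leaving out 1 library, the lowest without CVST replicate 1 or CVST_Ligation_4_PBA replicate 1 and the highest without CVST replicate 3. At 10 counts the other thalamic genes at an unadjusted p below 0.05 numbered 4 of 14 tested in CVST_Ligation against CVST and 1 in CVST_Ligation_4_PBA against CVST_Ligation, where leaving out 1 library gave 0 to 5. Among all 13367 genes tested at 10 counts, 1268 and 360 were past that p in the same order. Leaving out 1 library gave 256 to 1497 over all genes in the latter comparison. The 9 thalamic genes kept the sign of their median throughout. Those with no overlap in CVST_Ligation_4_PBA against CVST_Ligation numbered 3 to 7 leaving out 1 library, beside 5.69% to 15.8% of all tested genes. Of 402 values of single genes, 2 changed sign, Ramp3 in CVST_Ligation against CVST (-0.32 to 0.12 leaving out 1 library) to 0.12 without CVST_Ligation replicate 1 and Tcf7l2 in CVST_Ligation_4_PBA against CVST_Ligation (-0.30 to 0.82) to -0.30 without CVST_Ligation_4_PBA replicate 3. Labels give replicate numbers only. Same-numbered libraries correlated in their deviations from the group means with r from -0.05 to 0.32. Between CVST_Ligation and CVST_Ligation_4_PBA each same-numbered r was above 0 (0.13, 0.04 and 0.10) and each other r below 0. Against CVST not every library correlated best with its own number. The numbers were not taken as pairs, and the replicate block is given as an alternative. Shox2 was not tested at 10 counts.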
